A study of Homo sapiens with 8 samples.

Results

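The 10 genes followed here belong to the Notch pathway and were measured in MDA-MB-157 cells: the receptors NOTCH1, NOTCH2 and NOTCH3, the ligands JAG1, JAG2 and DLL1, the targets HES1, HEY1 and NRARP, and the nuclear coactivator MAML2. They were chosen by name, 10 of the 21059 genes measured, and all 10 were detected in every library. MDA-MB-157 is an established human breast cancer cell line labelled estrogen receptor negative. Glucose was held at 5 mM for the low glucose group and raised to 25 mM, a model of hyperglycemia, for the high glucose group, and RNA was sequenced after 48 hours in 4 libraries of each. According to the study's methods, cells of both groups were first conditioned in low-glucose medium and then kept without serum. The labels of the 8 libraries name no added osmotic control, so glucose itself and the osmolarity of the medium cannot be told apart here. In some experiments the study added mannitol to the 5 mM control to match osmolarity. It reports no effect of mannitol on proliferation or migration.

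Notch receptors sit in the plasma membrane and are activated by ligands of the Jagged and Delta-like families on neighboring cells. Binding exposes the receptor to an ADAM metalloprotease and then to γ-secretase, which releases the intracellular domain. That domain enters the nucleus, joins the DNA-binding protein RBPJ and a Mastermind-like coactivator, and switches on target genes, among them transcriptional repressors of the HES and HEY families. In breast tissue, Notch signals take part in luminal and progenitor cell fate, and Jagged ligands and Notch receptors have been studied widely in hormone receptor negative breast cancer.

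Values are read counts relative to the size of each library (CPM) scaled by the trimmed mean of M values (TMM) method. The libraries held an estimated 9721649 to 12482542 reads, 3 reads corresponded to 0.212 to 0.267 CPM, and intervals and floors from reads cover counting error only. Vimentin (VIM) and fibronectin (FN1), mesenchymal markers, reached 2856 to 4116 CPM and 2008 to 3650 CPM, whereas the epithelial markers EPCAM and CDH1 stood at 3.93 to 7.62 CPM and 0.330 to 1.41 CPM. KRT18 and KRT8, also epithelial, were at 156 to 238 CPM and 76.4 to 138 CPM. The estrogen receptor gene ESR1 was at or below 0.170 CPM, whereas the progesterone receptor gene PGR was at 4.33 to 5.95 CPM. Of the 4 endothelial genes, CDH5 and TEK were at or below 0.364 CPM, PECAM1 was at 0.911 to 1.24 CPM in the low glucose libraries and 1.51 to 2.84 CPM in the others, and VWF had means of 1.45 and 0.310 CPM. Of the leukocyte genes measured, PTPRC was at or below 0.178 CPM and CD14 had means of 1.25 and 4.24 CPM. PECAM1 and CD14 were higher and VWF lower at high glucose (limma adjusted p = 0.00775, 0.00252 and 0.00592), and their part in the results below was not tested. High glucose replicate 1 stood apart from the other libraries: its deviations from the mean of the other libraries of its group fell with transcript length (Spearman rho -0.65 across 11223 genes, which are not independent replicates), against 0.25 to 0.47 in the other 3 high glucose libraries and -0.13 to 0.06 at low glucose. Replicate 1 is part of the mean against which the other 3 high glucose libraries were set, so its trend enters their values. Nothing says whether the replicates were separate experiments, so p-values measure only the spread between these libraries. In bulk RNA, a lower level in every cell and fewer cells carrying the transcript cannot be told apart.

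The promoters of 3 targets are shown as examples with and without a motif: HES1 and HEYL hold a GTGGGAA sequence, the core recognized by RBPJ, and NRARP does not. Each line is the 250 bases before the gene's start, 5′ to 3′ on the gene's strand, from RefSeq on GRCh38.p14, with GTGGGAA or its reverse complement TTCCCAC in capitals. The windows are chr3:194135898-194136147 on the plus strand for HES1, and chr1:39639644-39639893 and chr9:137302272-137302521 on the minus strand for HEYL and NRARP.
HES1: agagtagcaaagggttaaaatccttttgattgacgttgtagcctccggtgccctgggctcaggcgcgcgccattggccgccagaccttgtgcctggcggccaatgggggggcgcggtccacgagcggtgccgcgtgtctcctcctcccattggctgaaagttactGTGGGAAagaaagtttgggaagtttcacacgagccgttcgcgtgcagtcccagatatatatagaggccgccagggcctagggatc
HEYL: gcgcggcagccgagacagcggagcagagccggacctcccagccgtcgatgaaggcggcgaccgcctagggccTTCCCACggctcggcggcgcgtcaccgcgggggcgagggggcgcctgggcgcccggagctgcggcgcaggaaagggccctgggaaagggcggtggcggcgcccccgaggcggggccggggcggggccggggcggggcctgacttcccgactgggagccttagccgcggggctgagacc
NRARP: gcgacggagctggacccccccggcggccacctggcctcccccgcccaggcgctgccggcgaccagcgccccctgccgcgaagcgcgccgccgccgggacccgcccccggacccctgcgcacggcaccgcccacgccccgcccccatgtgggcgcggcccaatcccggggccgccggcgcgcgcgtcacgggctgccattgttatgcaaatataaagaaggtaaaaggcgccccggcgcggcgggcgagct

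In HES1 the match starts 85 bases before the gene's start, and in HEYL it lies 178 bases before the start on the opposite strand. Both strands were searched. The 7 letters occurred in 1906 of 35116 RefSeq promoter windows of this length (5.43%), and the shorter TGGGAA, which they contain, in 20.8%. Promoter windows were at hand for 8 of the 10 genes, all but DLL1 and HEY1, and HES1 alone held a match. Of the 9 HES, HEY and NRARP genes with a window, which include HES5 and lack HEY1, 5 held one. A match describes letters only, and a window without it says nothing about RBPJ.

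Of the 10 genes, 6 passed the test at an adjusted p under 0.05 (limma, adjusted over all 21059 genes): 2 were higher at 25 mM glucose and 4 were lower. Across all genes 46.8% passed, with 22.0% higher and 24.8% lower. The 4 and 4 libraries did not overlap for 7 of the 10 genes, against 44.5% of all genes. Since all 10 genes averaged at least 5 CPM, the nearer background is the 11297 genes at that level, of which 66.9% passed and 65.0% did not overlap. By count, the 10 genes therefore lay close to the background, and what follows describes which moved, in which direction and by how much.

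**Figure D1:**
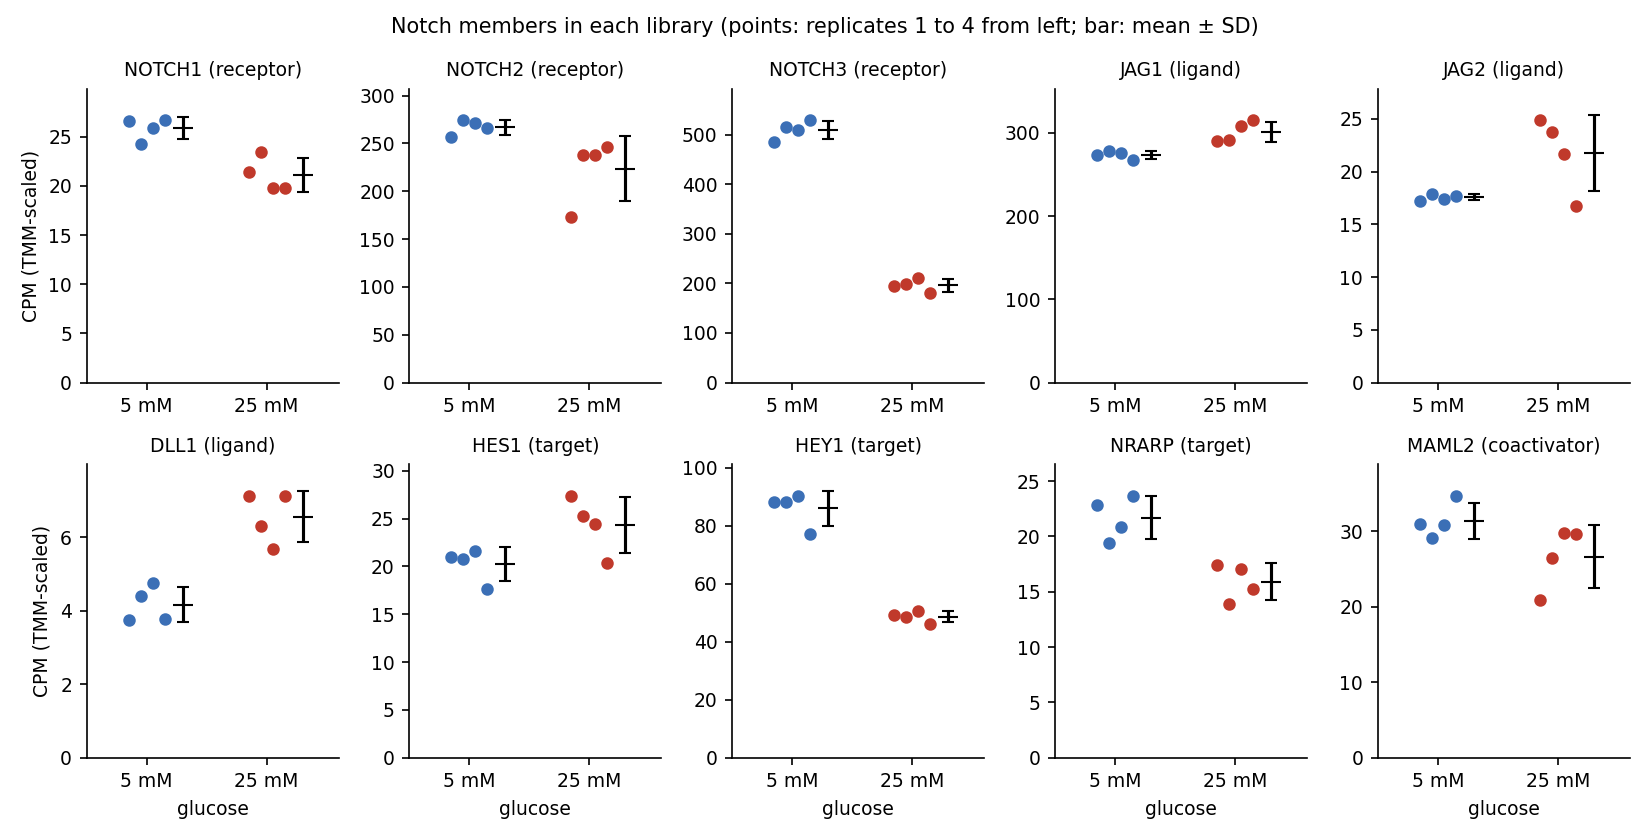
TMM-scaled CPM (y axis, from 0) of the 10 genes in each library at 5 mM (blue) and 25 mM glucose (red); points are replicates 1 to 4 from left to right and black bars are the mean ± SD of 4 libraries. NOTCH3 lies at 485 to 529 CPM at low glucose and 180 to 211 CPM at high glucose, and the groups of JAG2, HES1 and MAML2 overlap.

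Among the receptors, NOTCH3 showed the largest difference of the 10 genes. NOTCH3 (chromosome 19, 15269849 to 15311806, minus strand, GRCh37) measured 485, 515, 510 and 529 CPM in low glucose replicates 1 to 4 and 194, 198, 211 and 180 CPM in high glucose replicates 1 to 4. Every high glucose library was below every low glucose library. The means were 510 ± 18.4 CPM and 196 ± 12.8 CPM (SD, n = 4 each), 2.60-fold lower at high glucose. On the log2(CPM + 1) scale used for all tests the change was -1.38 (SE 0.052, limma adjusted p = 2.8e-06). Of the 11297 genes with a mean of at least 5 CPM, 88 fell as much or more, NOTCH3 included.

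NOTCH1 (chromosome 9, 139388885 to 139440500, minus strand), the receptor best known from T cell leukemia, also fell. It measured 26.6, 24.3, 25.9 and 26.7 CPM at low glucose and 21.5, 23.4, 19.8 and 19.8 CPM at high glucose, with no overlap. The log2 change was -0.28 (SE 0.061, limma adjusted p = 0.00736).

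NOTCH2 (chromosome 1, 120454176 to 120643366, minus strand) did not pass the test. It measured 256, 274, 271 and 266 CPM at low glucose and 173, 237, 237 and 247 CPM at high glucose, and the groups did not overlap. High glucose replicate 1, the library that stood apart by transcript length, held the low value of 173 CPM. The log2 change over all libraries was -0.27 (SE 0.112, limma adjusted p = 0.0910), and without that library it was -0.15 (limma adjusted p = 0.00540). NOTCH2 has a long transcript of 11425 bases, and 6.08% of its 31-base words occur in other genes, among them NOTCH2NLA and NBPF10, so its reads can be split between copies. NOTCH4, the remaining receptor, averaged 2.31 ± 0.598 CPM and 1.75 ± 0.495 CPM and did not pass (limma adjusted p = 0.289).

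Per kilobase of the canonical transcript, the scale on which different genes can be set side by side, the order of receptor levels at low glucose was NOTCH3 (58.7 ± 2.12 CPM per kilobase), NOTCH2 (23.4 ± 0.678), NOTCH1 (2.70 ± 0.116) and NOTCH4 (0.342 ± 0.0886; SD, n = 4). No neighbors in that order overlapped. At high glucose NOTCH3 averaged 22.6 ± 1.48 and NOTCH2 19.6 ± 2.98 CPM per kilobase. Their libraries overlapped, at 20.7 to 24.3 for NOTCH3 and 15.1 to 21.6 for NOTCH2. Within the same library, NOTCH3 was above NOTCH2 in replicates 1 to 3 and below it in replicate 4 (20.7 against 21.6). Their order at high glucose was not tested. NOTCH1 and NOTCH4 followed at 2.21 ± 0.180 and 0.260 ± 0.0734. NOTCH3 made up 68.6% to 69.8% of the summed receptor level in the low glucose libraries and 46.4% to 55.8% in the high glucose libraries. The share of NOTCH2 was 26.7% to 27.8% and 37.8% to 48.3% in the same libraries, while its own level was not higher. High glucose replicate 1, the library that stood apart by transcript length, held the lowest NOTCH2 level (15.1) and share (37.8%). In the other high glucose libraries the shares were 46.4% to 51.2% for NOTCH3 and 43.8% to 48.3% for NOTCH2.

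**Figure D2:**
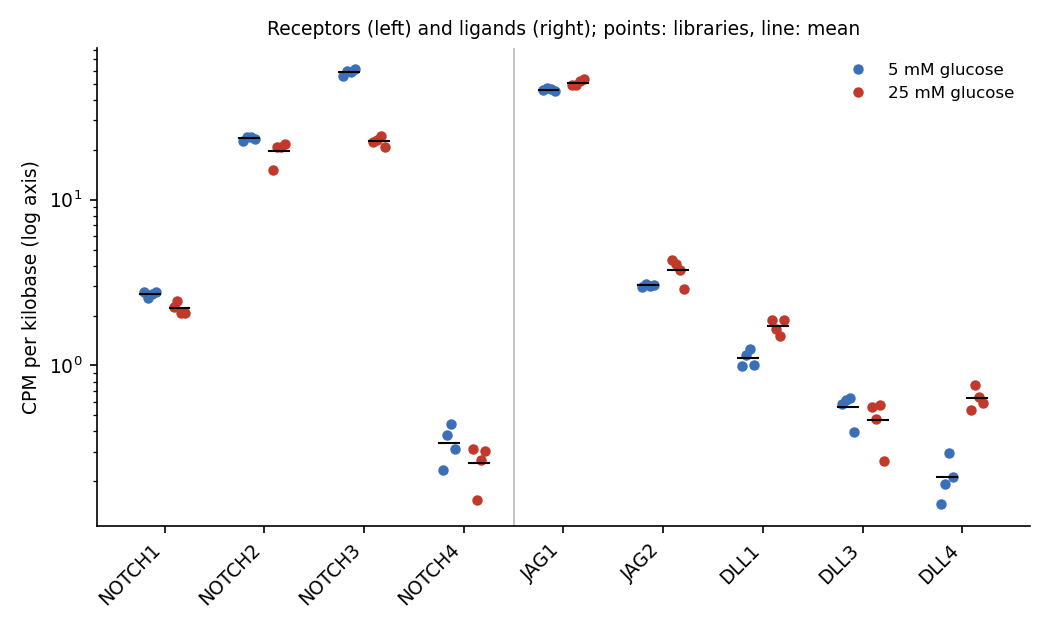
Level of the 4 receptors (left) and 5 ligands (right) as CPM per kilobase of the canonical transcript on a log axis; blue points are 5 mM and red points 25 mM glucose libraries, and lines are means of 4. NOTCH3 and JAG1 lead their groups at low glucose with means of 58.7 and 46.1, and at high glucose NOTCH3 and NOTCH2 overlap.

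The ligands that passed the test were all higher at high glucose. JAG1 (chromosome 20, 10618332 to 10654647, minus strand), the main Jagged ligand of these cells, measured 273, 278, 276 and 267 CPM at low glucose and 290, 292, 308 and 315 CPM at high glucose. The groups did not overlap, but the change was small, 0.14 on the log2 scale (SE 0.032, limma adjusted p = 0.0105). After quantile normalization it was 0.07 and did not pass (limma adjusted p = 0.138). An annotated gene on the other strand shares exon positions with JAG1, and use of the strand in counting is not established for this table.

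DLL1 (chromosome 6, 170591294 to 170615653, minus strand), a Delta-like ligand, was expressed at a low level and rose. It measured 3.75, 4.39, 4.76 and 3.79 CPM at low glucose and 7.13, 6.30, 5.69 and 7.11 CPM at high glucose, without overlap. The means of 4.17 ± 0.488 and 6.56 ± 0.695 CPM (SD, n = 4 each) differ 1.57-fold, and the log2 change was 0.55 (SE 0.0995, limma adjusted p = 0.00330). DLL1 shares exon positions with FAM120B on the other strand.

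JAG2 (chromosome 14, 105607319 to 105635161, minus strand), the other Jagged ligand, did not pass. It measured 17.3, 17.9, 17.4 and 17.7 CPM at low glucose and 24.8, 23.8, 21.7 and 16.8 CPM at high glucose. In all, 3 high glucose libraries were above all low glucose libraries and replicate 4 was below them. The log2 change was 0.28 (SE 0.114, limma adjusted p = 0.0834). Without high glucose replicate 4 it was 0.39 (limma adjusted p = 0.00119). Of its 31-base words, 7.66% occur in an overlapping annotated gene on the same strand.

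DLL4, a Delta-like ligand known from sprouting blood vessels, rose from 0.728 ± 0.217 to 2.18 ± 0.338 CPM (SD, n = 4; log2 change 0.88, limma adjusted p = 5.8e-04), and with a pseudocount of 0.1 the change was 1.49. These levels are a few times the value of 3 reads. DLL3, a ligand that acts mainly as an inhibitor within the cell, was at 0.801 to 1.27 CPM and at 0.533 to 1.15 CPM in the low and high glucose libraries and did not pass (limma adjusted p = 0.449). Per kilobase, JAG1 stood at 46.1 ± 0.822 at low and 50.7 ± 2.06 at high glucose, followed by JAG2 at 3.04 and 3.77 and DLL1 at 1.10 and 1.74 CPM per kilobase. JAG1 made up 89.9% to 90.7% of the summed ligand level in the low glucose libraries and 87.0% to 90.4% in the others. DLL3 and DLL4 were last, at 0.559 and 0.212 CPM per kilobase at low glucose and 0.471 and 0.638 at high glucose, where their libraries overlapped.

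**Figure D3:**
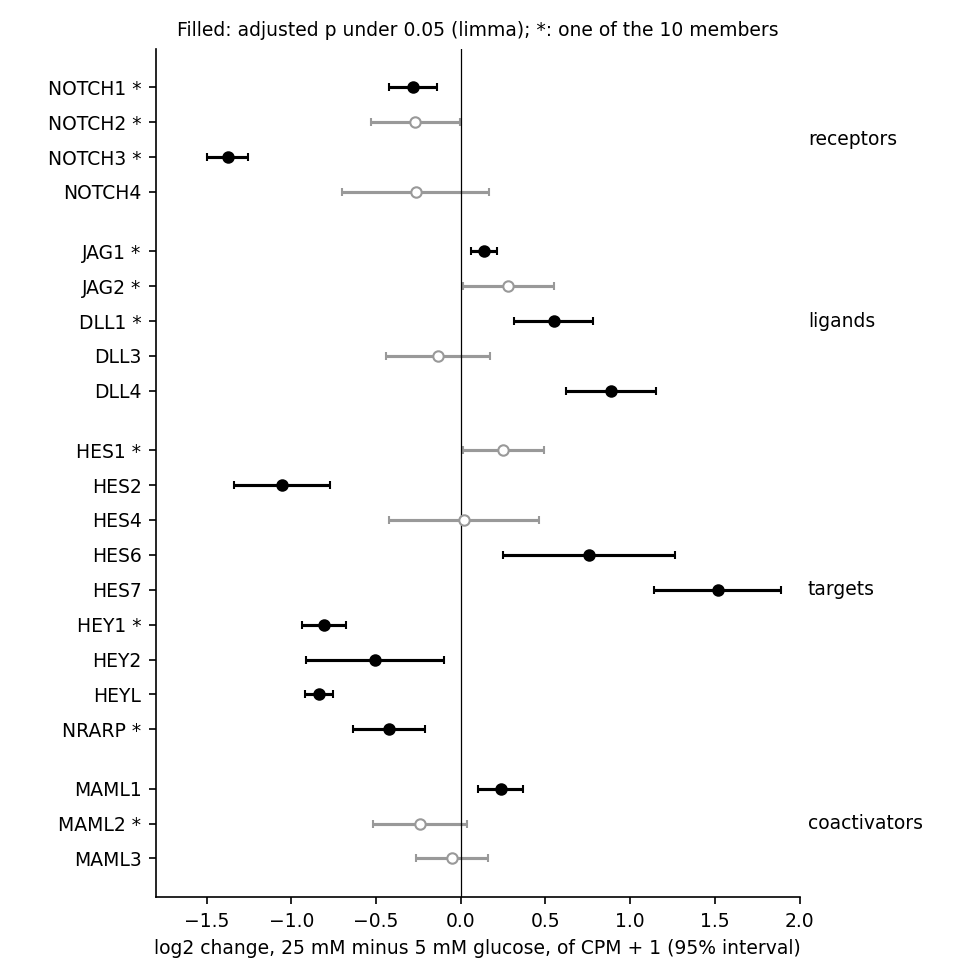
Log2 change of CPM + 1 (x axis, 25 mM minus 5 mM glucose) with its 95% interval for receptors, ligands, targets and Mastermind-like coactivators; filled points have a limma adjusted p under 0.05 and asterisks mark the 10 genes. On this scale NOTCH3 at -1.38 and HES7 at 1.52 lie farthest from 0, whereas with a pseudocount of 0.1 HES2 lies at -1.51 and NOTCH3 at -1.38.

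The genes listed as targets moved in both directions. The HES and HEY genes were listed by family, and whether Notch drives each of them in these cells was not tested. Of the 9 HES, HEY and NRARP genes measured, 5 fell, 2 rose and 2 did not pass, with a median log2 change of -0.43, against -0.01 over all genes tested. The 7 called are 77.8%, against 46.8% of all genes and 66.9% of those with a mean of at least 5 CPM, and the calls of HEY2 and HES6 were lost in 12 and 5 of 16 other settings. HES5 was listed as a target but had no values under that name among the 21059 genes, so only its promoter was searched.

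HEY1 (chromosome 8, 80674606 to 80680092, minus strand), a basic helix-loop-helix repressor, measured 88.4, 88.1, 90.4 and 77.2 CPM at low glucose and 49.3, 48.5, 50.8 and 46.2 CPM at high glucose. All high glucose libraries lay below all low glucose libraries. The means were 86.0 ± 5.96 and 48.7 ± 1.92 CPM (SD, n = 4 each), 1.77-fold lower at high glucose (log2 change -0.81, SE 0.055, limma adjusted p = 2.9e-05). HEYL, its close relative whose promoter is printed above, fell from 88.7 ± 1.42 to 49.2 ± 2.31 CPM (log2 change -0.84, limma adjusted p = 3.7e-06).

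NRARP (chromosome 9, 140194083 to 140196723, minus strand) encodes an ankyrin repeat protein that binds the Notch intracellular domain complex and limits its activity. It measured 22.8, 19.4, 20.9 and 23.7 CPM at low glucose and 17.4, 13.9, 17.1 and 15.3 CPM at high glucose, with no overlap. The log2 change was -0.43 (SE 0.090, limma adjusted p = 0.00672).

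HES1 (chromosome 3, 193853937 to 193856521, plus strand), the repressor most often used as a readout of Notch activity, had a higher mean at high glucose but did not pass. It measured 21.0, 20.8, 21.7 and 17.6 CPM at low glucose and 27.4, 25.3, 24.4 and 20.4 CPM at high glucose. Replicate 4 was the lowest library of both groups, and its high glucose value lay within the low glucose range. The log2 change was 0.25 (SE 0.101, 95% interval 0.01 to 0.49, limma adjusted p = 0.0820). Without high glucose replicate 4 it was 0.33 (limma adjusted p = 0.0175).

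Among the other genes listed as targets, HES2 fell from 3.59 ± 0.398 to 1.22 ± 0.297 CPM (log2 change -1.06, limma adjusted p = 3.2e-04). HEY2 fell from 2.46 ± 0.549 to 1.44 ± 0.494 CPM with overlapping groups (limma adjusted p = 0.0466). HES6, which can oppose HES1, rose from 4.74 ± 0.422 to 9.02 ± 2.88 CPM (log2 change 0.76, limma adjusted p = 0.0235). HES7, a gene of the somite clock, did not exceed 0.745 CPM in any low glucose library, was at 0 in replicate 3, and reached 2.76 to 3.11 CPM in the high glucose libraries (log2 change 1.52, limma adjusted p = 2.3e-04, and 2.95 with a pseudocount of 0.1). HES4 averaged 6.78 and 7.06 CPM and did not pass (limma adjusted p = 0.983).

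MAML2 (chromosome 11, 95709762 to 96076359, minus strand), a Mastermind-like coactivator, measured 30.9, 29.1, 30.8 and 34.7 CPM at low glucose and 20.8, 26.4, 29.7 and 29.6 CPM at high glucose. The groups overlapped, and high glucose replicate 1 was the lowest library. The log2 change was -0.24 (SE 0.118, limma adjusted p = 0.143). The related MAML1 rose from 89.0 ± 2.13 to 105 ± 8.40 CPM (log2 change 0.24, limma adjusted p = 0.0119; 0.12 after quantile normalization, which did not pass), and MAML3 was at or below 0.247 CPM.

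Whether genes of one role changed unequally was tested for 9 pairs with a 2-sided exact permutation test over 70 assignments of the libraries, in which the smallest possible p is 0.0286. The change of NOTCH1 exceeded that of NOTCH3 by 1.10 on the log2 scale and that of NOTCH2 exceeded NOTCH3 by 1.11. The change of HES1 exceeded that of HEY1 by 1.06 and that of NRARP by 0.68, and JAG1 changed by 0.41 less than DLL1 (difference -0.41). Each of these 5 differences had the smallest exact p, 0.0286, and an adjusted p of 0.0514 over the 9 pairs, so none passed. With 5 pairs at this floor no lower adjusted p was possible, so the test could not decide these differences. Not passing therefore does not show that these pairs changed alike. HEY1 and NRARP differed by -0.38 (exact p = 0.0571, adjusted p = 0.0857). JAG1 and JAG2 differed by -0.14 (exact p = 0.314) and JAG2 and DLL1 by -0.27 (exact p = 0.114). NOTCH1 and NOTCH2 differed by -0.01 (exact p = 0.943), which does not show that they changed alike.

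The steps of the pathway were covered by 8 lists of 65 genes, the 10 genes included, of which 64 were measured. In all, 21 rose, 20 fell and 23 did not pass, with a median log2 change of 0.02. The 41 called are 64.1%, near the 66.9% of genes with a mean of at least 5 CPM, and the counts below stand against that share and the 46.8% of all genes. Among the 5 genes for receptor glycosylation, 2 fell: POFUT1, which adds O-fucose to Notch, from 123 ± 4.65 to 95.8 ± 2.47 CPM (log2 change -0.36, limma adjusted p = 1.1e-04), and the fucose-extending enzyme LFNG from 26.0 ± 2.03 to 18.6 ± 3.09 CPM (-0.47, limma adjusted p = 0.0123). Of the 9 genes for receptor cleavage, 3 rose and 4 fell. ADAM17, a metalloprotease that can cleave Notch, rose from 83.4 ± 3.29 to 117 ± 8.01 CPM (0.48) and FURIN, the protease of receptor maturation, from 35.8 ± 3.73 to 62.8 ± 5.88 CPM (0.79). The 4 that fell were the γ-secretase genes PSEN2, NCSTN, APH1B and PSENEN, which the naming rule does not pick and which were named after their values were seen. The groups of PSENEN overlapped (limma adjusted p = 0.0371). Of the 31-base words of PSEN2, 98.6% occur in an overlapping annotated gene on the same strand. APH1A, named in the same way, is also a γ-secretase gene and did not pass (means of 122 and 112 CPM, limma adjusted p = 0.204).

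Of the 13 trafficking and turnover genes, 3 rose and 5 fell. NUMB, an inhibitor of Notch, rose from 99.3 ± 3.10 to 145 ± 7.93 CPM (0.54), whereas the ubiquitin ligases NEURL1B and DTX3L fell from 54.4 ± 3.71 to 29.7 ± 0.519 CPM (-0.85) and from 26.6 ± 2.07 to 15.3 ± 1.43 CPM (-0.76). Of the 7 nuclear activators, 5 rose and none fell, 71.4% called against the same 66.9%. RBPJ rose from 67.6 to 71.5 CPM in the low glucose libraries to 75.2 to 89.6 CPM in those with high glucose (0.25, limma adjusted p = 0.00659, and 0.15 after quantile normalization) and SNW1 from 112 ± 1.79 to 146 ± 8.13 CPM (0.38). The remaining pair, the acetyltransferases EP300 and CREBBP, were named after their values were seen: high glucose replicate 1, at 154 and 172 CPM, lay within the low glucose range and the other high glucose libraries at 246 to 269 and 251 to 276 CPM. The count of 5 activators became 3 when any library other than high glucose replicate 1 was left out, and 2 after quantile normalization. Of the 12 nuclear corepressors, 5 rose and 2 fell, 58.3% called. SPEN, among those that rose (limma adjusted p = 0.0429), was named after its values were seen. Its high glucose replicate 1, at 73.8 CPM, lay within the low glucose range of 71.1 to 80.4 CPM. The other high glucose libraries were at 118 to 131 CPM. TLE4, a Groucho family corepressor, rose from 63.1 ± 2.75 to 128 ± 7.36 CPM (1.01, limma adjusted p = 6.8e-06) and the histone deacetylase HDAC1 from 72.1 ± 0.630 to 96.4 ± 4.84 CPM (0.41).

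**Figure D4:**
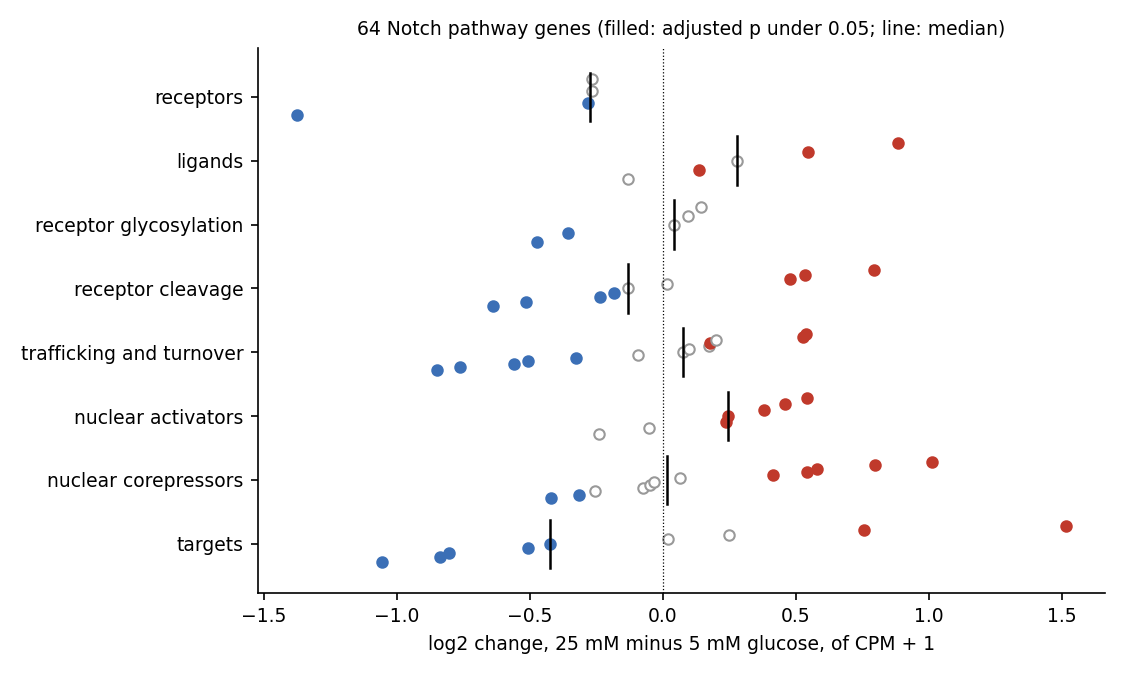
Log2 change of CPM + 1 (x axis, 25 mM minus 5 mM glucose) of the 64 measured pathway genes in 8 lists; red points rose and blue points fell at a limma adjusted p under 0.05, open points did not pass, and black lines are list medians. The receptors have a median of -0.27, the ligands of 0.28 and the targets of -0.43.

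Across 16 other settings the direction of all 10 genes was the same as reported. NOTCH1, NOTCH3, DLL1, HEY1 and NRARP passed in each of them, and JAG1 in all but quantile normalization.

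**Figure D5:**
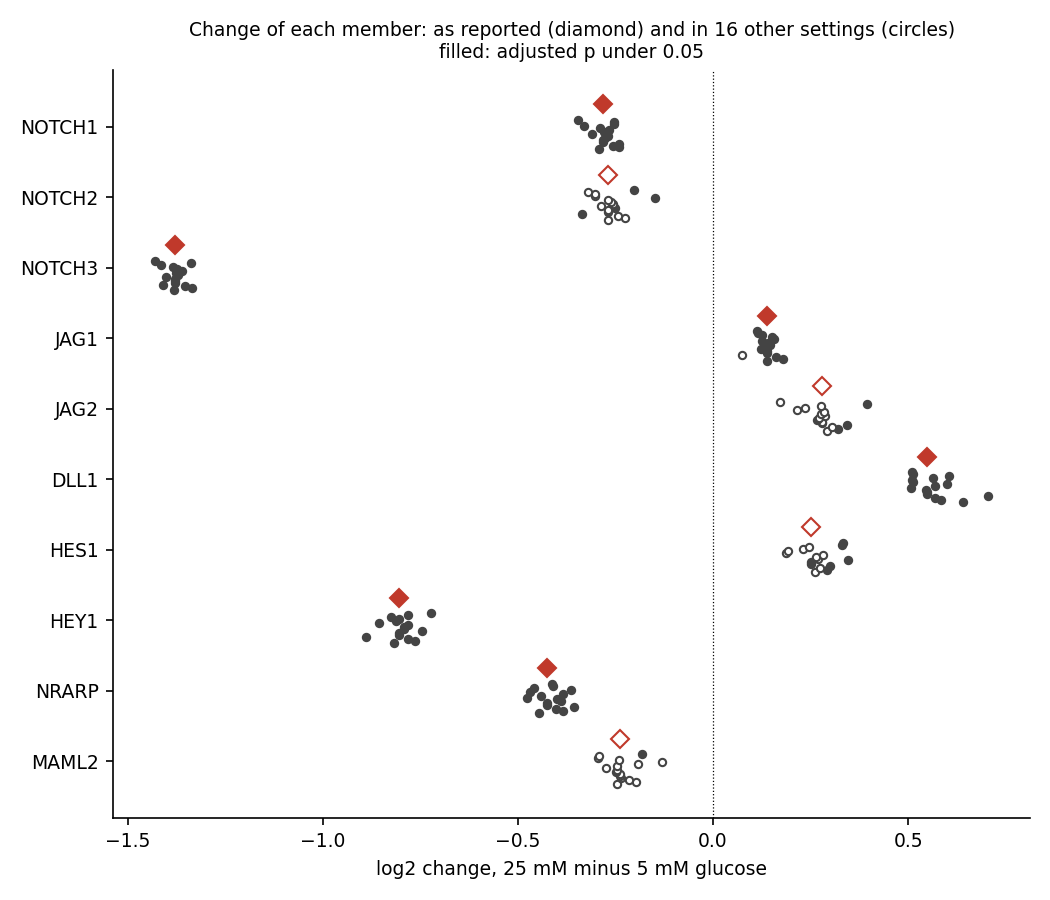
Log2 change (x axis, 25 mM minus 5 mM glucose) of each of the 10 genes as reported (red diamond) and in 16 other settings (gray circles); filled symbols have a limma adjusted p under 0.05. No gene crosses 0, and NOTCH2, JAG2, HES1 and MAML2 are open as reported and filled in some settings.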

How the data were processed

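RNA was sequenced from MDA-MB-157 cells in 4 low glucose and 4 high glucose libraries, grouped by the sample titles. The authors deposited 1 table of CPM values, scaled by the authors with TMM factors from edgeR. The submitters' processing notes name hg38 and the study's methods describe hg19, so which build the table used stays unknown. Low values lay on steps of 1 read, but only 72.4% to 73.9% of values below 200 reads were whole within 0.01, so whole reads were not recovered and no count test was run. Estimated reads are each library's sum divided by its step. Of 21077 lines, 18 pseudoautosomal Y copies, identical to the X copies, were left out.

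All 21059 genes were tested on log2(CPM + 1), a pseudocount of 1 that understates changes of low genes, with limma 3.58.1 in R 4.3.3 (lmFit, eBayes with trend, 2-sided, no covariate) and Benjamini-Hochberg adjustment at 0.05. Pairs were compared by exact permutation. Steps were tested on simulated data, where fewer of the changed genes were recovered below 5 CPM than above it, and the pass bound of that test was set on genes of at least 5 CPM after its first run. Positions, exon overlaps and shared 31-base words are from GENCODE release 44 on GRCh37 and describe the annotation. Genes named are the 10 members, all other receptors, ligands and targets, and in each other list at most the 3 called genes with the smallest adjusted p and a mean of at least 5 CPM, except 2 that are not reported here. The members and lists were chosen with earlier results of these data known. Alternatives were another pseudocount, other scalings, a filter at a mean of 1 CPM, a replicate block, removal of a transcript length trend and each library left out.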

Additional observations from a re-analysis of the deposited data

Results flagged for a closer look

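In 4 of 62 groups of 4 libraries, from 31 named genes, the library at one end was far from the other 3 by Dixon's test at the 95% level, and chance would give about 3.1. In high glucose replicate 1, NOTCH2 was at 173 CPM with the nearest library at 237 CPM (ratio 0.876), and HDAC1 was at 104 CPM with the nearest at 94.3 CPM (0.947). In low glucose replicate 4, POFUT1 was at 116 CPM against 125 CPM (0.922) and SNW1 at 109 CPM against 113 CPM (0.882). With the transcript length trend removed from every library, the log2 change of NOTCH2 was -0.25 (limma adjusted p = 1.5e-04).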

How the results depend on the processing

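NOTCH2 passed after quantile normalization (log2 change -0.33, limma adjusted p = 0.0498), with the 1 CPM filter (-0.27), after removal of the length trend (-0.25) and, in a setting added after the data were seen, after its removal without high glucose replicate 1 (-0.20). JAG1 did not pass after quantile normalization (0.0736). JAG2 passed with median-of-ratios scaling (0.32), quantile normalization (0.34), the filter (0.28) and the length trend removed (0.27). HES1 passed in the same settings (0.29, 0.30, 0.25 and 0.35), in the added setting (0.33) and with the replicate block (0.25, limma adjusted p = 0.0173). MAML2 passed with the length trend removed (-0.25) and in the added setting (-0.18). Nuclear activators called numbered 2 after quantile normalization, where RBPJ changed by 0.15 and MAML1, no longer called, by 0.12. With a pseudocount of 0.1 the changes of DLL4 and HES7 grew by over 1.5 times, to 1.49 and 2.95, and HES2 was at -1.51.

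With each library left out in turn, the log2 change was -0.32 to -0.15 for NOTCH2, 0.21 to 0.39 for JAG2, 0.19 to 0.33 for HES1 and -0.29 to -0.13 for MAML2, and 3 to 5 activators were called. HES4, never called, ranged from -0.12 to 0.15 and was below 0 in 3 cases: without replicate 2 of low glucose (-0.02) and without replicates 1 (-0.12) and 2 (-0.04) of high glucose. The difference between NOTCH1 and NOTCH2 ranged from -0.14 to 0.07 and turned positive in 4 cases (0.0189, 0.00212, 0.0486 and 0.0661). Without high glucose replicate 4, 6 pairs passed at an exact permutation p adjusted to 0.0429. Their exact p, 0.0286, was again the smallest possible, and all but JAG1 and JAG2 also had it with every library. The adjusted p fell because JAG1 and JAG2 joined the pairs at that floor, so it adds no evidence for the other pairs. The differences ranged from 1.05 to 1.16 for NOTCH1 and NOTCH3, 1.02 to 1.22 for NOTCH2 and NOTCH3, -0.28 to -0.0585 for JAG1 and JAG2, -0.48 to -0.36 for JAG1 and DLL1, 1.005 to 1.11 for HES1 and HEY1, and 0.57 to 0.74 for HES1 and NRARP. HES6 lost its call in 5 and HEY2 in 12 of 16 settings. The cause of these shifts was not tested.

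Same-numbered libraries did not deviate together (correlations 0.0692, -0.0280, 0.0136 and -0.0403), so the replicate numbers were not taken to pair the libraries. The replicate block called 8921 genes against 9849 and, among the 10 genes, changed the call of HES1 and no other. Depth limits HES7, DLL4 and MAML3 most, since their low glucose values rest on few reads.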
